A study of Mus musculus with 32 samples.

Results

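Matrix metalloproteinases (MMPs) and their tissue inhibitors (TIMPs) are described here in mouse liver, across diet, drug treatment and partial hepatectomy (PH). The members were chosen by name, as 10 of the 34947 gene names on the array, namely Mmp2, Mmp9, Mmp13, Mmp14, Mmp15, Mmp19, Timp1, Timp2, Timp3 and Timp4. To be tested, a gene needed 1 group in which all 4 arrays had a probe well above background. This held for 8 of the 10 members and for 21071 genes in all, while Mmp9 and Timp4 were too dim to be tested.

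The study asked how an agonist of the GLP-1 receptor acts on fatty liver and on the regrowth of the liver after surgery. Male C57/BL6 mice, 8 weeks old at the start, received standard chow (C) or a diet lacking methionine and choline (MCD) for 3 weeks, and those of the treated groups, C+Fc on chow and M+Fc on the MCD diet (labelled +Fc-GLP-1 in the plots), also had the drug in the last 2 of these weeks. PH then removed 70% of the liver, which gave the samples before PH, and mice kept on the same diet and treatment gave the samples 2 weeks after PH. Each of the 8 groups had 4 arrays, 32 in all, with 1 liver sample on each, and the mice sampled after PH were those that had survived it. Tissue before PH was taken at surgery from the same groups of mice, and since the labels do not say which samples came from 1 animal, all were fitted as independent. The diet causes fat accumulation and inflammation of the liver in lean mice. Labels disagree on the drug, which some fields call Fc-GLP-1 and others an agonist of both the glucagon receptor and that for GLP-1, and the arrays cannot tell which was given. The paper on the study names Fc-GLP-1, an agonist of the GLP-1 receptor, as the drug injected.

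Values below are log2 signals minus the 75th percentile of their array, so that a difference of 1 is a 2-fold difference. The share of probes well above background ran from 36.2% to 69.1% over the arrays (median 51.8%). The C and MCD arrays before PH shared 1 slide, as did the C+Fc and M+Fc arrays before PH and again those after PH. The C and the MCD arrays after PH lay on a slide each and were read on another scanner. Slide and group therefore cannot be told apart in comparisons of treated with untreated mice, of after with before PH, and of MCD with C mice after PH. As a check of the tissue, 10 of 10 hepatocyte markers were tested, and their mean log2 signal lay between 8.13 and 9.60 on all 32 arrays.

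MMPs are zinc-dependent endopeptidases, made as inactive precursors, that cleave collagens, laminins and other proteins of the extracellular matrix. TIMPs bind the active site of these enzymes and block it, so that the breakdown of matrix depends on both families and on activation, which an RNA array does not measure. In the liver they are known for the remodelling of scar tissue and of the matrix during regrowth, with stellate cells and macrophages among their main sources.

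Among the 16 arrays after PH, 3 stood apart from the other 3 of their group: C replicate 1, C+Fc replicate 1 and M+Fc replicate 4. The mean log2 signal of 20 tested matrix substrate genes was 2.46, 2.40 and 2.24 on these arrays in that order, against 1.17 to 1.79, 1.37 to 1.53 and 0.93 to 1.36 on the others. For 6 tested cholangiocyte markers, of which Spp1 was the brightest, it was 0.93, 1.08 and 1.77, against -1.41 to -0.76, -1.10 to -0.49 and -1.24 to -0.89. Those 3 arrays were the highest of their groups in both lists, and in each list no other array of the group came near. This did not hold for the 12 stellate cell markers, where C replicate 1 (0.97) lay below replicate 4 (1.07). In that list C+Fc replicate 1 had 1.56, against 0.69 to 1.06, and M+Fc replicate 4 had 1.13, against 0.50 to 0.87. For 14 macrophage and Kupffer cell markers, led by Cd5l in brightness, the mean was 4.0, 3.1 and 2.12, against 1.01 to 2.00, 1.39 to 1.77 and 1.13 to 1.61. Hepatocyte markers were lowest on the same arrays, at 8.13, 8.79 and 8.67, against 8.62 to 9.05, 8.89 to 9.41 and 9.18 to 9.45. Across all tested genes, which are not independent replicates, these arrays also had the lowest mean correlation with the other 3 arrays of their group, at 0.947, 0.972 and 0.968. For members other than Mmp13, results that pass or miss the threshold only without them are given both ways, as are some of the list results after PH, a choice made after seeing the data.

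**Figure D1:**
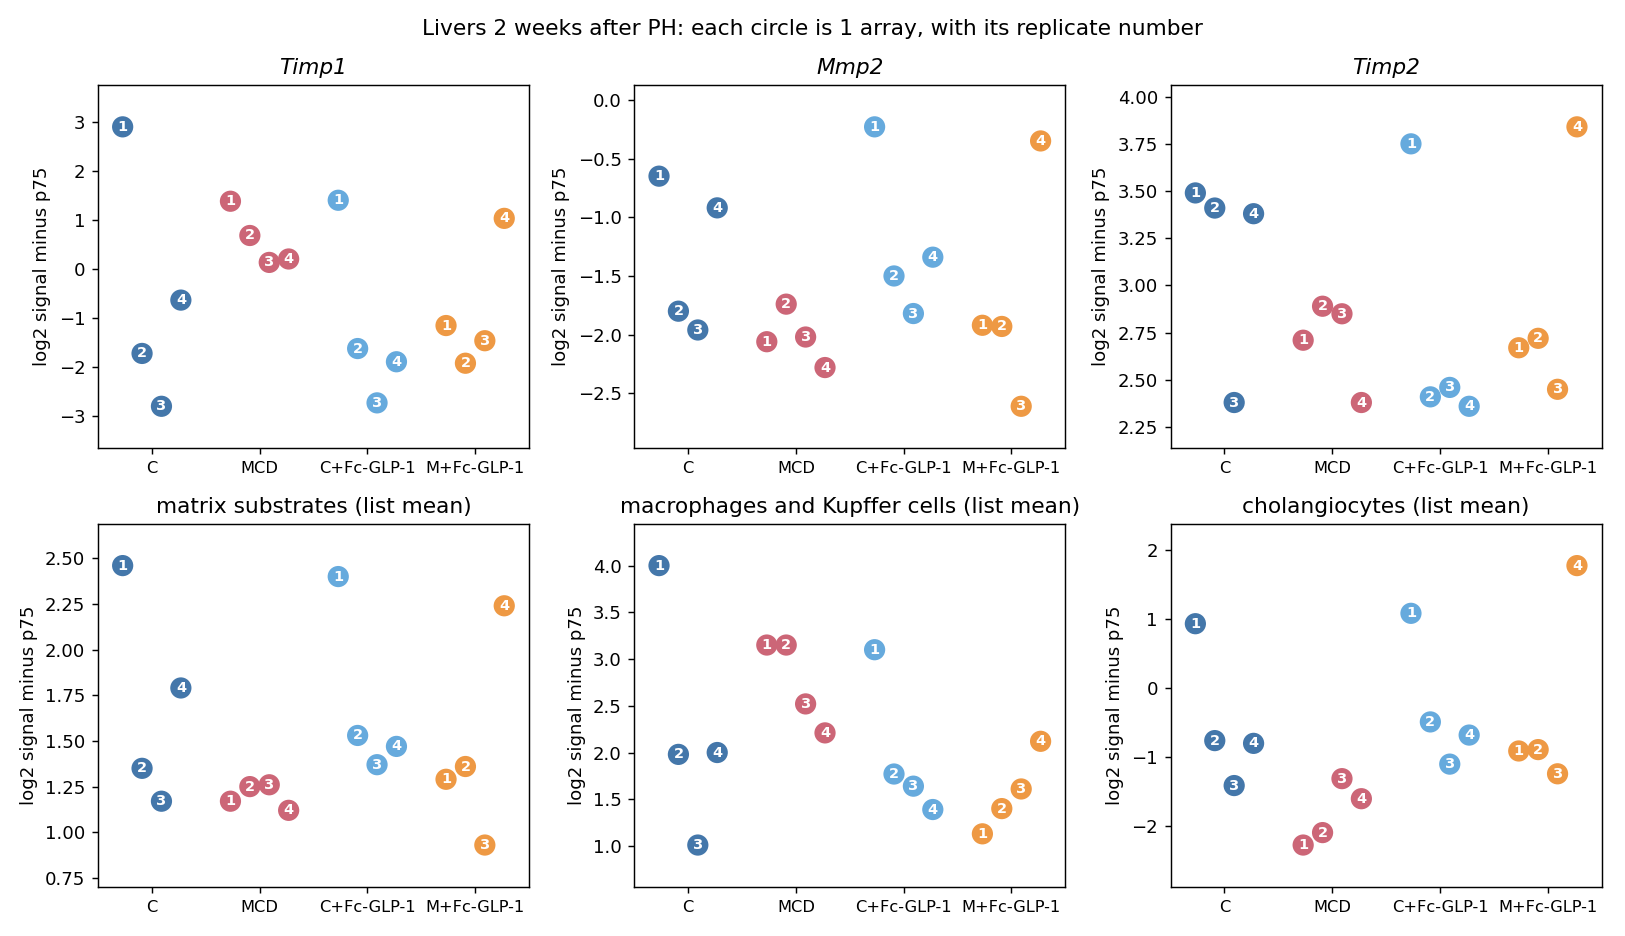
Timp1, Mmp2 and Timp2 (log2 signal minus the array's 75th percentile, p75) and the mean of 3 lists of genes on the 16 arrays after PH, by group, with the replicate number in each circle. C replicate 1 (Timp1 at 2.91), C+Fc replicate 1 (1.41) and M+Fc replicate 4 (1.04) are the highest of their groups for Timp1, Mmp2, Timp2 and all 3 lists.

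Of the gelatinases, Mmp2 encodes gelatinase A, which cleaves denatured collagen and basement membrane and is made largely by stellate cells and fibroblasts (probe at chr8:95376840-95376899 of mm9). Before PH its values were -1.99, -2.38, -2.27 and -2.91 in C, -1.25, -1.18, -2.18 and -1.85 in MCD, -2.92, -2.83, -2.36 and -3.73 in C+Fc, and -1.59, -2.75, -2.82 and -2.74 in M+Fc mice. After PH they were -0.65, -1.80, -1.96 and -0.92 in C, -2.06, -1.74, -2.02 and -2.28 in MCD, -0.23, -1.50, -1.82 and -1.34 in C+Fc, and -1.92, -1.93, -2.61 and -0.35 in M+Fc mice. Both chow groups lay higher after PH than before it, without overlap, whereas the values of the MCD groups before and after PH overlapped. Ordered by mean, C+Fc after PH was highest (-1.22 ± 0.69, SD, n = 4), followed by C after, MCD before, M+Fc after, MCD after, C before and M+Fc before PH, with C+Fc before PH lowest (-2.96 ± 0.57). Every neighbour in this order overlapped the next. Mmp2 was well above background on 30 of the 32 arrays, all but C+Fc replicate 4 and M+Fc replicate 2 before PH. Its differences from those groups before PH are therefore exact only for the signals as measured. From before to after PH, Mmp2 rose in C+Fc mice by a log2 fold change of 1.74 (adjusted p = 0.039 from limma, standard error, SE, 0.41), which is 3.34-fold as measured. The same change was 1.05 in C mice (adjusted p = 0.0804, and 0.0476 without M+Fc replicate 4 after PH) and 0.77 in M+Fc mice (adjusted p = 0.355). The rise was 1.41 without C+Fc replicate 1 after PH (adjusted p = 0.161) and lost the threshold in 7 of 8 fits that left out an array of these groups, all but C+Fc replicate 3 before PH, at 1.41 to 1.94. Its adjusted p was 0.157 with normexp and quantile normalization, where the change was 0.65, 0.0826 with median centring, 0.0885 with only the 8 arrays compared and 0.0559 without the 3 arrays that stood apart, and the range over all alternatives was 0.0224 to 0.161. Between MCD and C mice before PH, Mmp2 differed by 0.77 (SE 0.41, adjusted p = 0.161).

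Mmp9, gelatinase B, which neutrophils and macrophages release, has no test, since in no group did all 4 arrays exceed background well. It was well above background on 2 of 4 arrays each of MCD before, MCD after and C+Fc after PH, on 1 each of C and M+Fc after PH, and on 0 in the other groups. Its values in MCD mice after PH were -3.57, -3.50, -3.11 and -3.22, and in C mice before PH -5.87, -5.92, -5.67 and -5.60. With so few arrays well above background the groups are not ranked.

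Mmp13 encodes the main interstitial collagenase of rodents, which cuts fibrillar collagen (probe at chr9:7282762-7282821 of mm9). In MCD mice before PH its values were -2.60, -2.43, -2.97 and -1.43, against -4.56, -3.82, -4.96 and -4.51 in C, -5.00, -5.55, -5.55 and -3.01 in C+Fc and -5.64, -3.87, -4.67 and -3.68 in M+Fc mice. All 4 MCD values lay above all values of the other 3 groups before PH. The probe was well above background on 4 of 4 arrays of MCD mice before PH, on 1 of C mice and on 0 of both treated groups. Mmp13 was tested only because of the MCD mice before PH, so that a difference of that group from the others was built into the choice and adds no support of its own. After PH the values were -1.09, -5.62, -5.92 and -4.55 in C, -3.22, -3.40, -4.34 and -4.08 in MCD, -3.63, -4.89, -4.29 and -4.47 in C+Fc, and -4.95, -5.98, -6.57 and -3.90 in M+Fc mice. C replicate 1 was far above every other array of that time, and the 4 groups overlapped. The mean was -2.36 ± 0.66 (SD, n = 4) in MCD mice before PH, and the other groups are not ranked, since most of their signals were near background.

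Because of that choice the limma result of Mmp13 in MCD against C mice before PH is given as a description. The fold is given with a limit on dim signals, since only 1 C array was well above background. Dim signals under the lowest signal well above background on their array were raised to it, which left C replicate 1 as measured (-4.56, with the lowest at -5.18). So limited, Mmp13 was 3.95-fold higher in MCD than in C mice, within 1 slide (limma adjusted p = 0.0311 without this limit). Since dim signals can lie above that lowest signal, the fold is not a strict lower bound. This fold, 1.98 on the log2 scale, holds for the values used here only. With normexp and quantile normalization the log2 change was 0.86, and in the authors' values 0.80, both smaller. Without C replicate 1, 3 or 4 or MCD replicate 2 or 4 the adjusted p lay between 0.0527 and 0.0981, in a range from 0.00249 over 40 alternatives. Against MCD mice, Mmp13 in M+Fc mice before PH was 2.53-fold lower with the same limit, with an adjusted p of 0.0694 without it. The limit left the dim M+Fc replicate 4 as measured. Here too the fold, -1.34 on the log2 scale, is no strict bound and holds for these values only. The change was -1.01 with normexp and quantile normalization and -0.87 in the authors' values. The comparison passed the threshold in 7 of 40 alternatives, among them the fit of only the 8 arrays compared (adjusted p = 0.0286) and the fit without C replicate 1 after PH (adjusted p = 0.0159), within a range of 0.00882 to 0.197. Other comparisons of Mmp13 rest largely on signals near background and are not read.

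The membrane-type enzymes Mmp14 and Mmp15 act at the cell surface, and Mmp14 also activates the Mmp2 precursor together with Timp2. Mmp14 was well above background on all 32 arrays (probe at chr14:55058775-55058834 of mm9). Before PH its values were 0.73, -0.02, 0.27 and -0.09 in C, 0.00, -0.23, -1.0 and -1.0 in MCD, -0.89, 0.33, 0.50 and -0.02 in C+Fc, and 0.29, 0.83, -0.25 and -0.09 in M+Fc mice. After PH they were 0.71, -0.08, -0.32 and -0.50 in C, 0.83, 0.81, 0.36 and 0.07 in MCD, 0.25, -0.11, 0.05 and 0.12 in C+Fc, and 0.92, 0.69, 0.55 and 1.13 in M+Fc mice. The MCD values after PH lay above those before PH without overlap, and M+Fc values after PH lay above those of C+Fc mice on the same slide. M+Fc after PH had the highest mean (0.82 ± 0.26, SD, n = 4), then MCD after, C before, M+Fc before, C+Fc after, C+Fc before and C after PH, and MCD before PH the lowest (-0.56 ± 0.52), with overlap between all neighbours. In MCD mice Mmp14 rose from before to after PH by 1.08 on the log2 scale (SE 0.31, adjusted p = 0.0254), or 2.11-fold. Without MCD replicate 3 or 4 before PH or MCD replicate 1 or 2 after PH the change was 0.93 to 0.98 (adjusted p = 0.0768 to 0.0967). With normexp and quantile normalization it was 0.71 (adjusted p = 0.186) and with median centring 0.99 (adjusted p = 0.106), in a range from 0.0158. M+Fc against C+Fc mice after PH gave 0.74 (adjusted p = 0.117). MCD against C mice before PH gave -0.78 (adjusted p = 0.0614), and past the threshold -0.96 without MCD replicate 1 (adjusted p = 0.0346) and -0.78 without C+Fc replicate 1 before PH or C replicate 1 after PH (adjusted p = 0.0429 and 0.0455) or without the 3 arrays that stood apart (adjusted p = 0.049).

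Mmp15 and Mmp19 passed the limma threshold in 0 of 14 comparisons, with 2 and 1 comparisons at an unadjusted p under 0.05. Mmp15 was well above background on all arrays and ranged from a mean of 1.63 ± 0.53 (SD, n = 4) in C before PH to 0.24 ± 0.32 in MCD after PH. Its mean was lower in MCD than in C mice before PH by a log2 fold change of -0.86 (adjusted p = 0.0932) and in M+Fc than in C+Fc mice by -0.78 (adjusted p = 0.196). Mmp19, a soluble enzyme that cleaves components of the basement membrane, ranged from -0.28 ± 0.28 in C after PH to -1.32 ± 0.62 in M+Fc before PH. For both genes all neighbours in the order of groups overlapped. The change of Mmp19 in M+Fc against C+Fc mice before PH was -0.80 (SE 0.31, adjusted p = 0.104). Left out in turn, C replicate 4 before PH took Mmp15 in MCD against C mice to -1.10 (adjusted p = 0.0468) and C replicate 2 before PH took Mmp19 there from -0.60 (adjusted p = 0.159) to -0.90 (adjusted p = 0.0327).

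**Figure D2:**
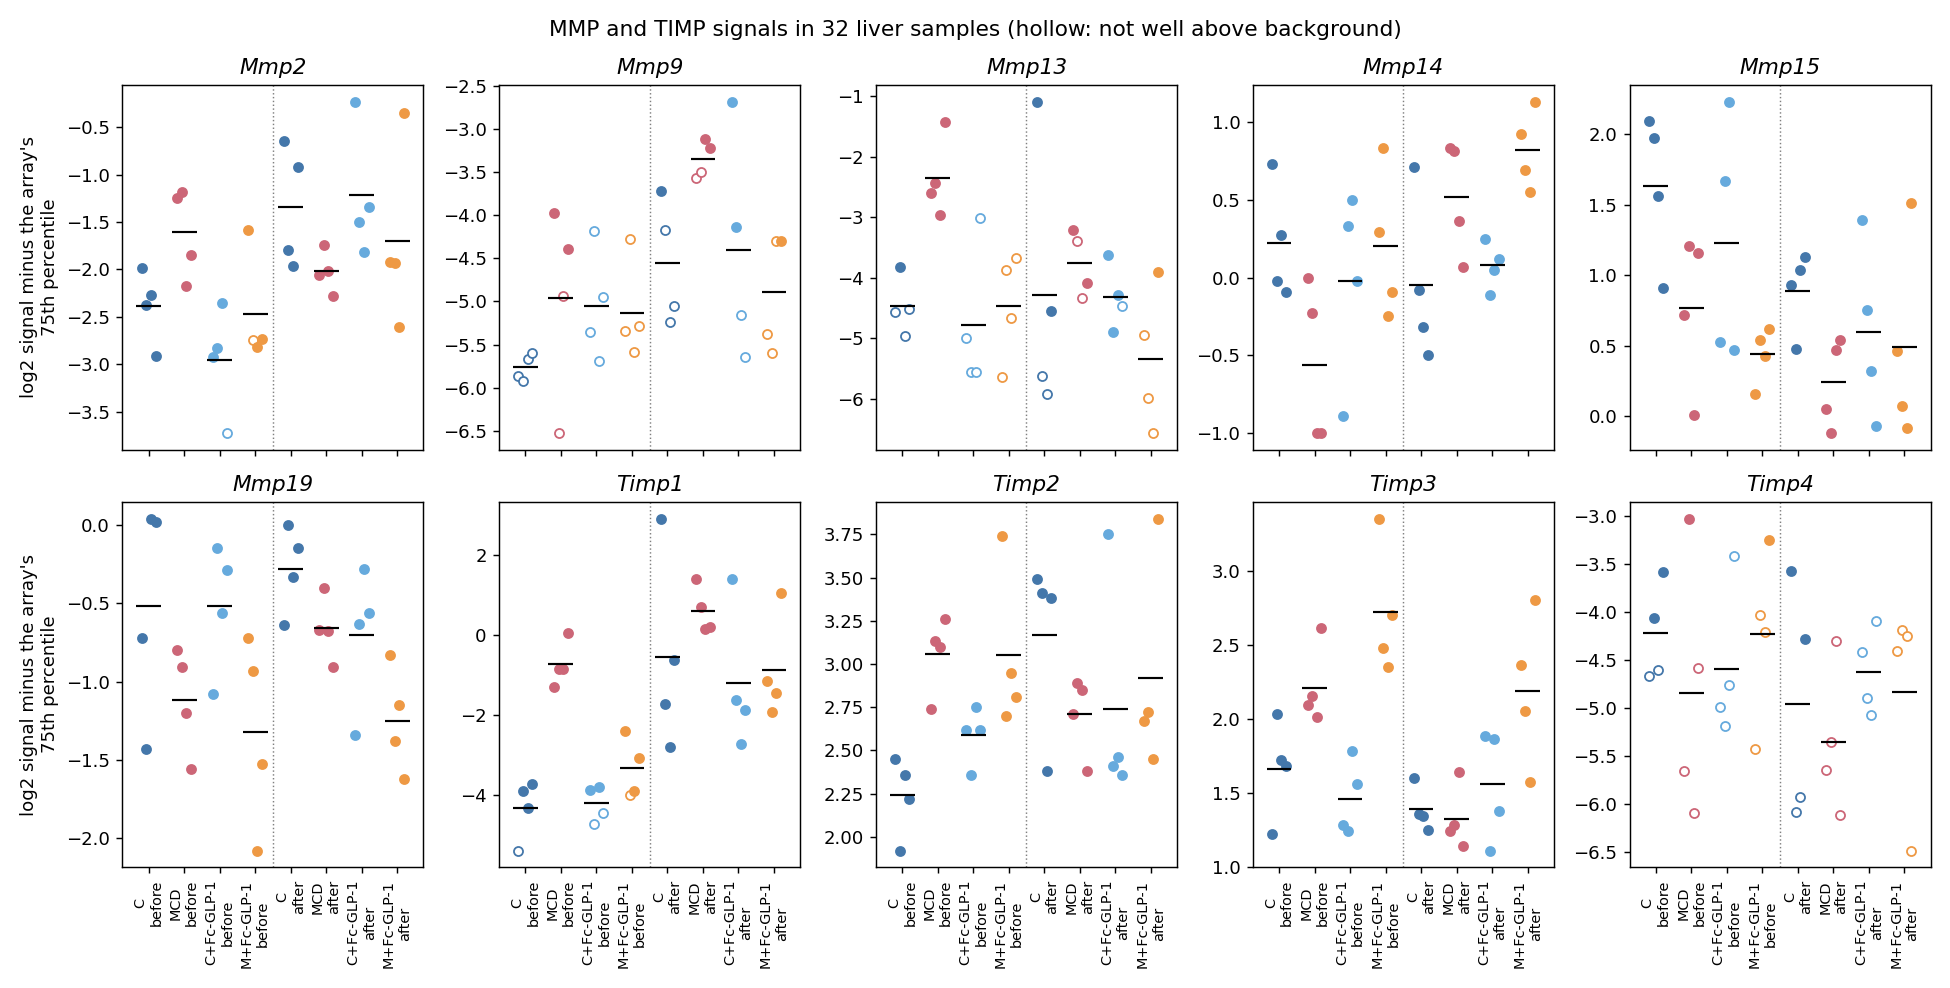
Log2 signal minus the array's 75th percentile of the 10 members on each of 32 arrays, with bars at the group means, the groups before PH left of the dotted line, and hollow circles for arrays on which the probe was not well above background. Timp1 lies between -1.31 and 0.04 in MCD mice before PH and between -5.40 and -3.73 in C mice, and Timp3 between 2.35 and 3.35 in M+Fc mice before PH and between 1.24 and 1.78 in C+Fc mice.

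Among the inhibitors, Timp1 is a secreted protein that blocks most soluble MMPs and is known to accompany liver fibrosis (probe at chrX:20451802-20451861 of mm9). It was well above background on 28 of 32 arrays, the others being 1 of C, 2 of C+Fc and 1 of M+Fc mice before PH. Before PH its values were -5.40, -3.91, -4.33 and -3.73 in C, -1.31, -0.86, -0.85 and 0.04 in MCD, -3.88, -4.74, -3.81 and -4.46 in C+Fc, and -2.41, -4.0, -3.90 and -3.07 in M+Fc mice. The 4 MCD arrays lay above the 12 others of that time, with no overlap, and the other 3 groups overlapped each other. After PH the values were 2.91, -1.72, -2.80 and -0.63 in C, 1.39, 0.69, 0.14 and 0.21 in MCD, 1.41, -1.62, -2.73 and -1.89 in C+Fc, and -1.15, -1.92, -1.46 and 1.04 in M+Fc mice. MCD values after PH ran from 0.14 to 1.39, above 3 of the 4 values in each other group. The remaining array of each was high, at 2.91 in C, 1.41 in C+Fc and 1.04 in M+Fc mice, and C replicate 4 came next at -0.63. MCD after PH had the highest mean (0.61 ± 0.58, SD, n = 4), followed by C after (-0.56 ± 2.48), MCD before, M+Fc after and C+Fc after (-1.21 ± 1.81), and by M+Fc before, C+Fc before and C before PH (-4.34 ± 0.75). All neighbours in this order overlapped. Differences from the 3 groups with dim arrays are exact only for the signals as measured. Each dim Timp1 signal lay below the lowest signal well above background on its array. With each raised to that one, the differences are given below as at least, bounds under this limit and for these values only.

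Against C mice, Timp1 rose on the MCD diet before PH by a log2 fold change of 3.60 (SE 0.83, adjusted p = 0.00222), or 12.1-fold, within 1 slide (at least 3.54). It passed the threshold in 39 of 40 alternatives and missed it with normexp and quantile normalization, where it was 1.73 (adjusted p = 0.0703), while the authors' values gave 1.60 (adjusted p = 6.2e-05), in a range from 1.33e-06. M+Fc mice before PH were lower than MCD mice by -2.60 (SE 0.83, adjusted p = 0.0536), or by at least 2.27 on the log2 scale, without overlap of the groups. The spread in that fit was shared with the groups after PH. Fitted on the 8 arrays compared alone, the same difference had an adjusted p of 0.00981, and without the 3 arrays after PH that stood apart 0.00078, while the authors' values gave -1.20 (adjusted p = 0.00322). It passed in 10 of 40 alternatives, in a range to 0.213. Among these were the fits without 1 of 4 arrays after PH, C replicates 1 and 3, C+Fc replicate 1 and M+Fc replicate 4 (adjusted p = 0.0145 to 0.0442). In the treated mice, with dim arrays in both groups, the diet gave 0.88 (adjusted p = 0.558), and the interaction, in which an additive difference between slides cancels, was -2.72 (SE 1.18, adjusted p = 0.159), and -2.40 with dim signals raised. On the 16 arrays before PH alone the interaction had an adjusted p of 0.0148, in the authors' values it was -1.27 (adjusted p = 0.0257), and without the 3 arrays after PH its adjusted p was 0.00844, in a range to 0.473.

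In each of the 4 diet and drug groups the 4 Timp1 values after PH lay above the 4 before PH. Of all tested genes, 14.0% passed the threshold over that time in C, 9.43% in MCD, 0.835% in C+Fc and 1.71% in M+Fc mice. Timp1 rose in C mice by 3.78 (SE 0.83, adjusted p = 0.00337), or 13.8-fold (at least 3.73), and by 2.10 with normexp and quantile normalization (adjusted p = 0.0439). The differences of 3.01 in C+Fc (at least 2.95, adjusted p = 0.0771), 2.47 in M+Fc (at least 2.14, adjusted p = 0.125) and 1.35 in MCD mice (adjusted p = 0.339) did not pass. Over the alternatives they went down to 1.44 in C+Fc and 1.34 in M+Fc mice, below those bounds. Without the 3 arrays after PH that stood apart, the changes were 2.63 in C (adjusted p = 0.00179), 2.14 in C+Fc (adjusted p = 0.0359), 1.83 in M+Fc (adjusted p = 0.0423) and 1.35 in MCD mice (adjusted p = 0.047, and 0.034 with only the 8 arrays compared). Without C replicate 1 after PH alone, C+Fc (adjusted p = 0.0208) and M+Fc mice (adjusted p = 0.0375) passed as well. The rise in C mice had an adjusted p of 0.0596 when only the 8 arrays compared were fitted, the highest of its alternatives, with 0.000847 the lowest. After PH, MCD exceeded C mice by 1.17 (adjusted p = 0.407), and by 2.33 without C replicate 1 (adjusted p = 0.0262). M+Fc against MCD mice after PH gave -1.48 (adjusted p = 0.3), and -2.12 without the 3 arrays (adjusted p = 0.00793).

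Timp2, which both inhibits MMPs and takes part in the activation of Mmp2 at the cell surface, was well above background on all arrays with either of its probes. The brighter one (chr11:118163146-118163205 of mm9) had values before PH of 2.45, 1.92, 2.36 and 2.22 in C, 2.74, 3.13, 3.1 and 3.26 in MCD, 2.62, 2.36, 2.75 and 2.62 in C+Fc, and 3.74, 2.70, 2.95 and 2.81 in M+Fc mice. After PH it had 3.49, 3.41, 2.38 and 3.38 in C, 2.71, 2.89, 2.85 and 2.38 in MCD, 3.75, 2.41, 2.46 and 2.36 in C+Fc, and 2.67, 2.72, 2.45 and 3.84 in M+Fc mice. C mice before PH were low on every array and did not overlap MCD mice, and C mice after PH reached down to them with replicate 3 alone. C after PH had the highest mean (3.17 ± 0.52, SD, n = 4), then MCD before, M+Fc before, M+Fc after, C+Fc after, MCD after and C+Fc before PH, and C before PH the lowest (2.24 ± 0.23), with overlap between all neighbours.

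Timp2 rose in MCD against C mice before PH by 0.82 on the log2 scale (SE 0.31, adjusted p = 0.0481) and in C mice from before to after PH by 0.93 (SE 0.31, adjusted p = 0.042). The first passed in 14 of 40 alternatives. It missed the threshold without any of C replicates 1 to 4 and MCD replicates 2 to 4 before PH (0.71 to 0.89, adjusted p = 0.0584 to 0.117) and in 15 fits without an array of another group (adjusted p up to 0.0529). It was 0.42 with normexp and quantile normalization (adjusted p = 0.394) and 0.39 in the authors' values (adjusted p = 0.31), and missed without a filter (adjusted p = 0.0702) and as the mean over both probes (0.73, adjusted p = 0.0798), in a range from 0.0097. The change over time passed in 28 of 39 alternatives and missed without any of C replicates 1 to 4 before PH or C replicates 1, 2 and 4 after PH (0.82 to 1.00, adjusted p = 0.0528 to 0.128), and with normexp and quantile normalization (0.89, adjusted p = 0.0739), without a filter (adjusted p = 0.0653), as the mean over both probes (0.87, adjusted p = 0.0584) and with only the 8 arrays compared (adjusted p = 0.0932), in a range from 0.0114. The difference of group means was 0.64 and 0.80 with the other probe in these comparisons. The probes disagreed elsewhere, with -0.01 for the brighter and -1.12 for the other in M+Fc against MCD mice before PH, 0.46 and -0.45 in M+Fc against C+Fc mice before PH, and -0.13 and 0.74 over time in M+Fc mice.

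Timp3, the inhibitor that stays bound to the matrix and also blocks several ADAM proteases, was well above background on all arrays (probe at chr10:85811696-85811755 of mm9). Before PH its values were 1.22, 2.03, 1.72 and 1.68 in C, 2.09, 2.15, 2.01 and 2.61 in MCD, 1.28, 1.24, 1.78 and 1.56 in C+Fc, and 3.35, 2.48, 2.35 and 2.70 in M+Fc mice. The M+Fc values lay well above those of C+Fc mice, and MCD and C mice overlapped slightly. After PH the values were 1.60, 1.36, 1.34 and 1.25 in C, 1.24, 1.28, 1.64 and 1.14 in MCD, 1.88, 1.11, 1.86 and 1.38 in C+Fc, and 2.36, 2.05, 1.57 and 2.80 in M+Fc mice. MCD mice were low again after PH, below each of their values before PH, and 3 of 4 M+Fc arrays lay above all other arrays of that time. M+Fc before PH had the highest mean (2.72 ± 0.44, SD, n = 4), then MCD before, M+Fc after, C before, C+Fc after, C+Fc before and C after PH, and MCD after PH the lowest (1.32 ± 0.22). Neighbours in this order overlapped throughout.

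On the shared slide before PH, Timp3 rose in M+Fc against C+Fc mice by a log2 fold change of 1.26 (SE 0.25, adjusted p = 0.00132), or 2.39-fold, past the threshold in 40 of 40 alternatives (1.00 to 1.38, adjusted p up to 0.0255). In untreated mice the diet gave 0.55 (adjusted p = 0.103), and past the threshold 0.92 with median centring (adjusted p = 0.013). The interaction was 0.70 (SE 0.36, adjusted p = 0.229) and ran from 0.08 to 0.85 over alternatives, so that a difference between the diet effects was not shown. M+Fc against MCD mice before PH gave 0.50 (adjusted p = 0.217), and past the threshold 0.88 with normexp and quantile normalization (adjusted p = 0.0193) and 0.87 in the authors' values (adjusted p = 0.00557). M+Fc mice after PH were higher than MCD mice by 0.87 (SE 0.25, adjusted p = 0.0363), which missed the threshold without any of MCD or M+Fc replicates 1, 2 and 4 (0.66 to 0.92, adjusted p = 0.0575 to 0.124). Without the 3 arrays after PH that stood apart it was 0.66 (adjusted p = 0.11), and it also missed with median centring (0.73, adjusted p = 0.111), with only the 8 arrays compared (adjusted p = 0.114), without a filter (adjusted p = 0.0783) and in the authors' values (adjusted p = 0.0752), in a range from 0.015. On the slide shared after PH the value against C+Fc mice was 0.63 (adjusted p = 0.102), and past the threshold 0.84 without M+Fc replicate 3 (adjusted p = 0.0337) and 0.76 with normexp and quantile normalization (adjusted p = 0.0428). In MCD mice Timp3 fell by 0.89 on the log2 scale from before to after PH (SE 0.25, adjusted p = 0.0235). That change was -0.76 without MCD replicate 4 before PH (adjusted p = 0.089), -0.88 to -0.83 without MCD replicate 1, 2 or 4 after PH (adjusted p = 0.0539 to 0.0625), and past the threshold in all other alternatives, from 0.0156.

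Timp4, an inhibitor best known from the heart, was not tested. It was well above background on 2 of 4 arrays of C before and of C after PH, on 1 of MCD and of M+Fc mice before PH and on 0 in the other groups. As for Mmp9, the groups are not ranked.

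**Figure D3:**
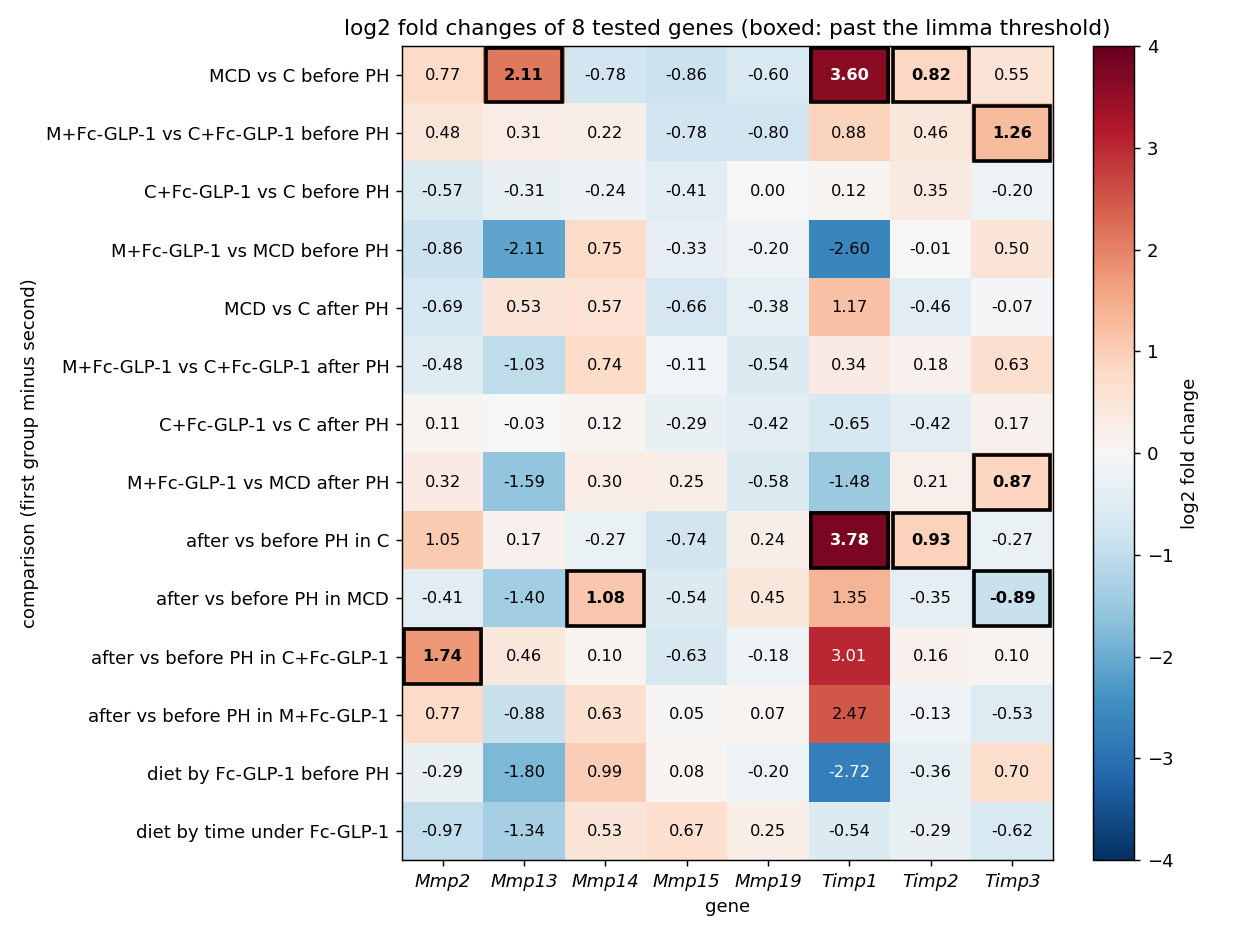
Log2 fold changes of the 8 tested members (columns) in the 14 comparisons (rows, first group minus second, or difference of differences), with colour from -4 to 4 and a box around each of the 10 values past the limma threshold. Timp1 holds the largest boxed values, 3.60 and 3.78, and 0 boxes lie in the rows of C+Fc against C mice.

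The comparison of MCD with C mice before PH asks what the diet did to the untreated liver, and in it Timp1 and Timp2 rose. It shares groups with other comparisons below, which are set side by side only. With Mmp13, 3 of 8 tested members passed, against 26.5% of all tested genes, a count that carries no weight of its own since Mmp13 was testable only through its level in MCD mice. The median log2 fold change of all genes was -0.13. Among 7 tested of 17 other MMP genes, Mmp12, the elastase of macrophages (3.72, SE 0.73), and Mmp27 (2.42, SE 0.40) rose and Mmp17 fell by 1.04 on the log2 scale. A gene high in 1 group only can pass the filter through that group, as Mmp13 did. Detection by group is not given for these 7 genes, so their changes, here and below, are for the signals as measured. Of 15 tested ADAM and ADAMTS proteases 4 rose and 1 fell, with Adam8 at 2.76 and the procollagen-trimming Adamts2 at 1.38 and Adamts14 at 1.16. Of 14 tested activators and other regulators of MMPs 4 rose and 3 fell, with the cathepsins Ctss at 2.59 and Ctsk at 1.44 and the urokinase receptor Plaur at 2.15. Of 20 tested matrix substrates 8 rose and 1 fell (median 0.75), among them Nid1 (1.67), Lum (1.64), Col1a1 (1.64) and Col6a3 (1.57).

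Cell type markers were read in the same comparison. Macrophage and Kupffer cell markers rose in 10 of 14 genes (median 1.74), with Gpnmb at 5.19, Trem2 at 4.62 and the brightest, Cd5l, at 1.82. Neutrophil markers rose in 4 of 11 genes, Lcn2 by 5.08. Of stellate cell markers 3 of 12 rose, Pdgfra by 1.90 and Lrat by 1.88, a share close to the 26.5% of all genes, with a list median of 0.28 and the brightest, Colec11, at 0.04. Hepatocyte markers fell in 6 of 10 genes (median -0.71), Apoa1 with -1.13. T and NK cell markers rose in 1 and fell in 2 of 8 genes, B and plasma cell markers rose in 2 and fell in 1 of 7, and 1 of 9 endothelial and 1 of 4 mesothelial markers rose and 1 of 6 cholangiocyte markers fell. In such bulk samples more cells of a type and more RNA per cell cannot be told apart, and the part of these cell types in the values of Mmp13, Timp1 and Timp2 was not tested.

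With the drug given to both diet groups before PH, Timp3 was the 1 of 8 tested members that passed, against 10.4% of all genes (M+Fc against C+Fc mice, within 1 slide). The median was 0.39 over the tested members and 0.04 over all genes. Beside it, the stellate cell markers Pdgfra (1.52) and Cygb (1.02) rose and Ngfr fell by 1.77 on the log2 scale, 3 of 12 genes, while 0 of 7 other MMP genes passed in limma and 1 of 14 macrophage markers, Clec4f at -1.10, did. Adamts14 rose by 1.18 and Adamts4 fell by 1.69, and Col3a1 fell by 1.45 on the log2 scale as the 1 of 20 matrix substrates past the threshold. The median of the stellate cell list was 0.12, and 1 of 9 endothelial markers rose, with a list median of 0.31. The part of any cell type in the rise of Timp3 was not tested.

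Drug effects before PH compare groups on different slides. In M+Fc against MCD mice 0 of 8 members passed in limma, against 7.22% of all genes, and 4 had an unadjusted p under 0.05 (Mmp2, Mmp13, Mmp14 and Timp1). Of these, Mmp13 was testable only through its level in MCD mice. That count was 6 in MCD against C and 3 in M+Fc against C+Fc mice before PH. Counts at an unadjusted p, here and below, have no share of all genes beside them and are not read as results. Other MMP genes were lower there in 2 of 7, Mmp12 with -2.44 (SE 0.73) and Mmp27 with -2.07 (SE 0.40). Macrophage markers were lower in 5 of 14 genes (median -1.62), Cd5l with -1.84, and neutrophil markers in 3 of 11, with 1 higher, among them Lcn2 with -4.16. In the matrix list Col3a1 was lower by -1.99. Plasma cell markers were lower as well, 2 of 7 genes, Jchain with -5.29 and Mzb1 with -1.69, and of the MMP regulators Ctss was lower (-1.69) and Furin, which activates precursors of membrane-type MMPs, was higher (1.09). Their part in the Mmp13 and Timp1 values was not tested. In C+Fc against C mice 0 of 8 members passed in limma, against 2.11% of all genes, with 0 at an unadjusted p under 0.05, and Sparc (1.12) was the 1 matrix substrate that rose.

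The interaction of diet and drug before PH passed in 0 of 8 members in limma, against 6.15% of all genes, with Mmp14 (0.99, adjusted p = 0.165) and Timp1 as the 2 at an unadjusted p under 0.05. Among other MMP genes Mmp27 passed, at -2.32 (SE 0.57), as did 5 of 14 macrophage markers, all negative, with Lyz2 at -2.96. Also negative were 3 of 11 neutrophil markers (list median -1.12), 1 of 7 B and plasma cell markers and the MMP regulator Ctss (-2.86). Of the T and NK cell markers 1 of 8 was positive. Collagen III (Col3a1, -2.41) and Sparc (-1.60) were negative and Vcan (1.29) positive among 20 matrix substrates.

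After PH the diet moved 0 of 8 members past the limma threshold in untreated mice (MCD against C, different slides), against 12.1% of all genes, and 0 had an unadjusted p under 0.05. Without the 3 arrays that stood apart Timp1 passed, as did Mmp13, which in that fit was well above background on 2 of 4 MCD and 1 of 3 C arrays and is not read. In that comparison 4 of 20 matrix substrates were lower, Col3a1 with -2.11 and Col1a2 with -1.27. Of 12 stellate cell markers Acta2 (-2.18) and Ngfr were lower and Pdgfra (0.98) was higher, and 7 of 11 neutrophil markers were higher, Ngp with 3.92. Leaving those arrays out, 3 matrix substrates were lower and 2 higher, Col3a1 with -1.66, Acta2 was lower with -1.64, and 6 neutrophil and 4 of 14 macrophage markers were higher (Gpnmb with 5.38), against 1 macrophage marker with all arrays. Between M+Fc and C+Fc mice on 1 slide after PH, 0 of 8 members passed in limma, against 12.8% of all genes, with Mmp14 and Timp3 as the 2 at an unadjusted p under 0.05, while Mmp27 was lower by -1.96 (SE 0.40). There 2 of 14 macrophage, 3 of 7 B and plasma cell, 1 of 12 stellate cell, 1 of 8 T and NK cell and 1 of 9 endothelial markers were lower. Furin was higher by 0.94. Leaving out the 3 arrays, 0 macrophage, 2 B and plasma cell, 1 stellate cell, 0 T and NK cell and 0 endothelial markers were lower. In that fit 1 macrophage and 1 neutrophil marker were higher.

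For the drug after PH, Timp3 was the 1 of 8 members that passed in M+Fc against MCD mice, against 6.50% of all genes, on different slides. There the neutrophil collagenase Mmp8 (-2.52, SE 0.70) and Mmp27 (-2.13, SE 0.40) were lower, beside 8 of 11 neutrophil markers (median -2.90, Ltf with -5.17), 3 of 14 macrophage markers and the plasma cell markers Jchain (-3.40) and Mzb1 (-1.62), and the cholangiocyte marker Epcam was higher by 2.78. There 2 of 10 hepatocyte markers were higher as well, Apoa2 with 0.77. Without the 3 arrays that stood apart Timp1 passed and Timp3 did not, and Mmp13 passed with 0 of 3 M+Fc and 2 of 4 MCD arrays well above background and is not read. In that fit 6 neutrophil and 5 macrophage markers were lower, 4 hepatocyte markers were higher (median 0.72), and Epcam was higher by 1.95. In C+Fc against C mice after PH 0 of 8 members passed in limma, against 2.06% of all genes, with 0 at an unadjusted p under 0.05.

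Over the 2 weeks after PH, with slide and time not separable, 2 of 8 members rose in C mice (Timp1 and Timp2, against 14.0% of all genes past the threshold) and 1 rose and 1 fell in MCD mice (Mmp14 and Timp3, against 9.43%). In C+Fc mice 1 rose (Mmp2, against 0.835%), and in M+Fc mice 0 passed in limma, against 1.71%, where 2, Timp1 and Timp3, had an unadjusted p under 0.05. The members' medians were 0.21, -0.38, 0.13 and 0.06, beside -0.08, -0.03, 0.00 and -0.03 over all genes. In C mice 9 of 20 matrix substrates rose (median 1.07), Col1a1 by 2.77, Col3a1 by 2.34, Col1a2 by 2.25 and Sparc by 2.10, together with Mmp27 (2.17) and 13 of 14 macrophage markers (median 2.06, Trem2 by 2.93). There 5 of 11 neutrophil markers rose (median 1.96, Lcn2 by 4.36) and 3 of 10 hepatocyte markers fell (median -0.62, Apoa2 with -0.95). With the 3 arrays that stood apart left out these were 9 of 20 (median 0.86, Col1a1 by 1.98, Col3a1 by 1.90), 9 of 14 (median 1.42, Trem2 by 1.93), 4 of 11 and 1 of 10. In MCD mice Mmp8 rose by 2.61, with 7 of 11 neutrophil markers, Ltf by 4.12 (3 of 11 in M+Fc mice, Lcn2 by 5.33), while 2 matrix substrates rose, Col4a1 by 1.06 and Vcan by 1.04. Beside the fall of Timp3 there, 2 of 12 stellate cell markers fell (median -0.52, Reln with -1.24 and Lrat with -1.03). In the same mice 4 of 8 T and NK cell markers passed, with Cd4 (1.09) among 3 that rose and Cd3g (-1.38) as the 1 that fell, the cholangiocyte marker Epcam fell (-2.28), and 1 of 9 endothelial markers rose and 1 fell. The mesothelial marker Msln rose by 3.26 in MCD and by 5.35 in M+Fc mice, 1 of 4 genes in each. Col3a1 rose by 2.00 in C+Fc and by 2.19 in M+Fc mice (1.52 and 1.64 without those arrays), where Col4a2 (1.89) and Col4a1 (1.27) rose as well. Outside C mice the receptor Marco was the 1 of 14 macrophage markers past the threshold in each group (2.61 in MCD, 2.40 in C+Fc and 2.59 in M+Fc mice), with the brightest marker, Cd5l, at 0.09, 1.16 and 1.17. The part of these cell types in the members' changes was not tested. The interaction of diet and time under the drug passed in 0 of 8 members in limma, against 0.0949% of all genes, with 0 at an unadjusted p under 0.05.

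Whether proteases and inhibitors changed unequally was examined as the difference of 2 log2 signals within each array, for 6 pairs and the 3 comparisons that lie on 1 slide. Such a difference does not depend on how arrays are centred. It does depend on background correction, and the pairs were read with 1 such setting only. In MCD against C mice before PH, Timp1 alone rose by 3.60 here and by 1.73 with normexp and quantile normalization, and Timp2 by 0.82 and 0.42. Only the change of a difference between groups can be read, since signals of separate probes have no common scale. Mmp14 minus Timp1 was 6.12, 3.89, 4.60 and 3.64 in C and 1.31, 0.63, -0.15 and -1.04 in MCD mice before PH, without overlap and with a change of -4.38. Between these groups the change was -2.82 for Mmp2 minus Timp1, -1.60 for Mmp14 minus Timp2 and -1.33 for Mmp14 minus Timp3, each without overlap, while Mmp2 minus Timp2 changed by -0.05 with overlap. With the dim Timp1 signal of C replicate 1 raised as above, the changes with Timp1 were -4.32 for Mmp14 and -2.77 for Mmp2, again without overlap. These differences share genes and arrays, so that those with Timp1 restate its rise, those with Mmp14 restate its values, and none is separate evidence. Mmp13 minus Timp1 is not read, because Mmp13 was well above background on only 1 of 4 C arrays. With that pair, 5 of 18 tests reached 0.0286 in a two-sided exact permutation test, the smallest p that 4 arrays against 4 allow. With a smallest p of that size, 11 of the 18 tests would have had to reach it for any to pass after adjustment, so that the 0 passes (smallest adjusted p = 0.103) say little. In the treated mice Mmp14 minus Timp3 changed by -1.04 before PH (exact permutation p = 0.0571, adjusted p = 0.147) and Mmp2 minus Timp2 by -0.66 after PH (exact permutation p = 0.0571, adjusted p = 0.147), both with overlap.

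**Figure D4:**
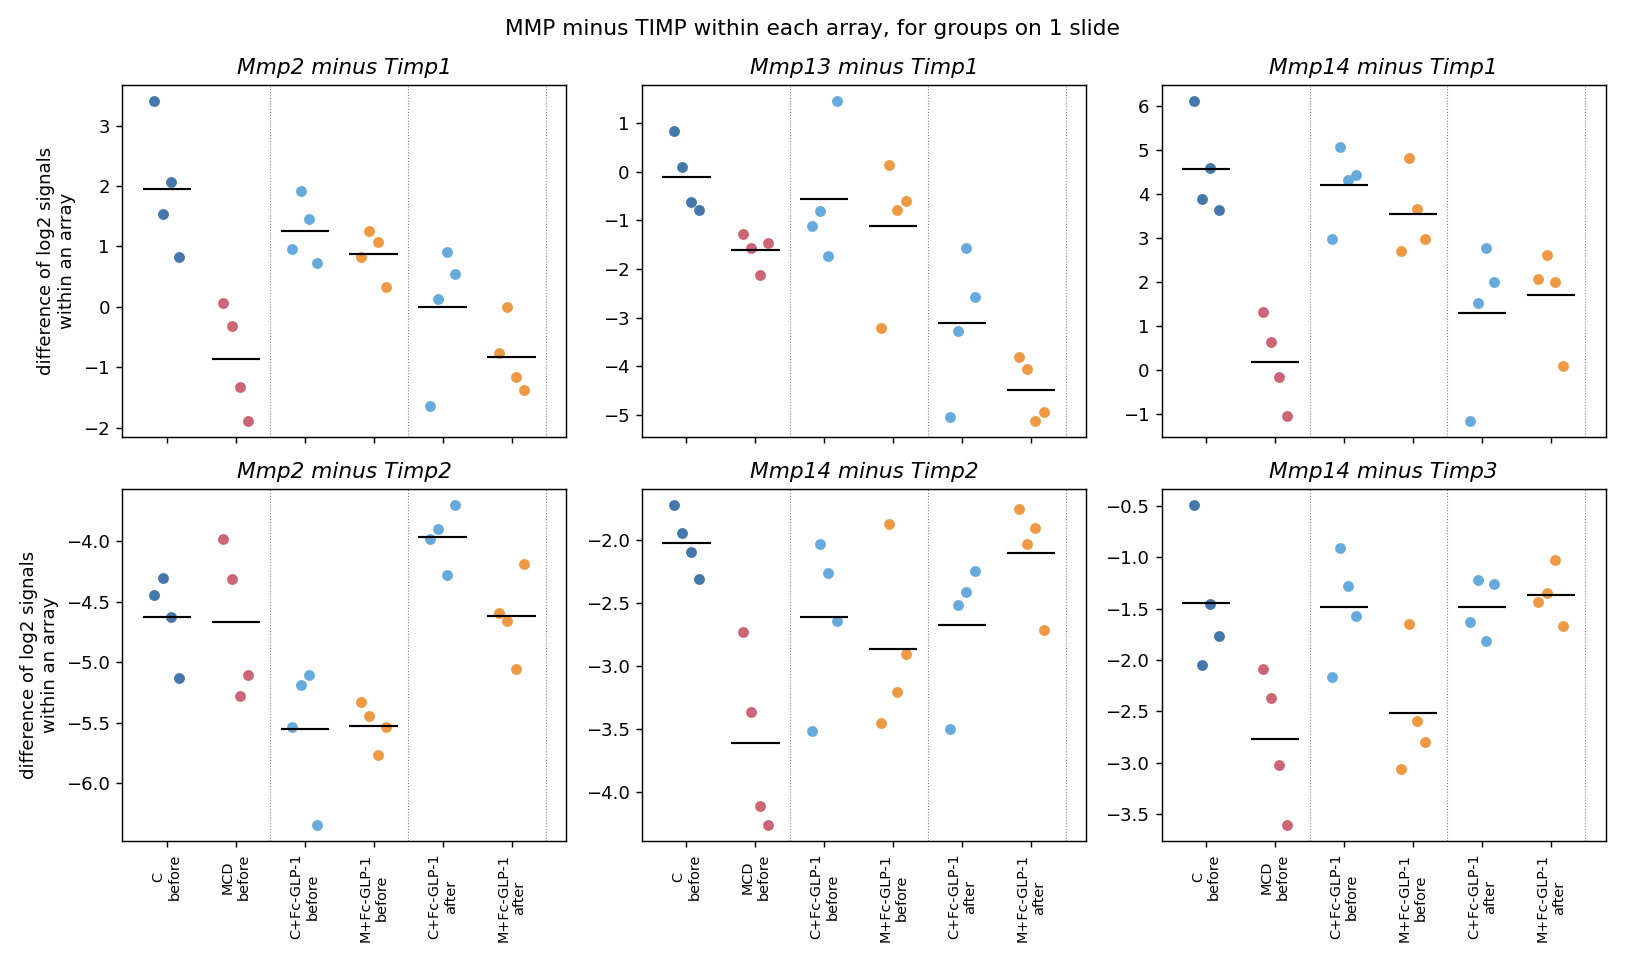
Difference between the log2 signals of an MMP and a TIMP within each array, for 6 pairs and the groups that share a slide, with bars at group means and dotted lines between slides. The height of a panel has no meaning of its own, and in the panels of Mmp14 minus Timp1 the MCD arrays before PH (-1.04 to 1.31) lie below the C arrays (3.64 to 6.12).

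The genes whose log2 values were most like each member's over the 32 arrays were sought among 14778 tested genes with a RefSeq symbol. These correlations are descriptions, since arrays share groups and slides, and most were weaker once group means were removed. Timp1 was nearest to the death receptor gene Tnfrsf10b (r = 0.94), to Capg, which caps actin filaments in macrophages (r = 0.93), and to Sirpb1a (r = 0.91), and most opposed to the antioxidant enzyme Prdx6 (r = -0.86), with r = 0.89, 0.93, 0.79 and -0.60 once group means were removed. Mmp2 was nearest to the microfibril and matrix genes Mfap2 (r = 0.82) and Ltbp2 (r = 0.81) and to Pdgfrb, a receptor of stellate cells (r = 0.80), and most opposed to Urah (r = -0.75). Mmp13, well above background on only 13 of the 32 arrays, was nearest to Slc37a2 (r = 0.77), to Itgax, an integrin of macrophages and dendritic cells (r = 0.72), and to Speg (r = 0.71), and most opposed to the hepatocyte gene Cyp2e1 (r = -0.72). Without the 2 farthest arrays these were 0.65, 0.59, 0.59 and -0.60.

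Timp2 was nearest to Ptpn13 (r = 0.82), Emp1 (r = 0.81) and Mxra7 (r = 0.80), against Atp11b (r = -0.76), and Timp3 to Mapk8ip1 (r = 0.86), Fam102a (r = 0.78) and Fmo2 (r = 0.78), against Pla2g12b (r = -0.81, and -0.52 with group means removed). Mmp14 was nearest to Scarb1, Hira and Ncstn (r = 0.73 to 0.69), Mmp15 to Med12, Smarcd3 and Sertad4 (r = 0.70 to 0.68), and Mmp19 to C9, Tirap and Lama3 (r = 0.75 to 0.73). The lowest values for these were -0.71 with Adal, -0.75 with Ccdc32 and -0.77 with Ccdc191. Among the members themselves Mmp2 and Timp1 had r = 0.70, Mmp2 and Timp2 0.62 and Timp1 and Timp2 0.58. With group means removed the order turned, at 0.64, 0.74 and 0.70, while Timp1 and Timp3 had r = 0.01 over all arrays and 0.50 with group means removed. The 3 arrays after PH that stood apart were the highest of their groups for Mmp2, Timp1, Timp2 and Timp3 alike. Values of r between members without these arrays are not given, so how far they rest on them is not known.

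Promoter windows of RefSeq on GRCm38 were available for 7 of the 10 members and not for Mmp2, Mmp9 and Mmp19. The 250 bases before the start of Mmp13 and Timp1, both higher on the MCD diet, and of Timp3, which rose in the treated MCD mice, are shown to compare the motifs at each start. Capitals mark matches, on either strand, to AP-1 (TGANTCA), the TATA box (TATAAA) or the GC box (GGGCGG), which did not overlap each other here. Mmp13 lies at chr9:7272264-7272513, Timp1 at chrX:20869916-20870165 and Timp3 at chr10:86300162-86300411, all on the + strand.
Mmp13: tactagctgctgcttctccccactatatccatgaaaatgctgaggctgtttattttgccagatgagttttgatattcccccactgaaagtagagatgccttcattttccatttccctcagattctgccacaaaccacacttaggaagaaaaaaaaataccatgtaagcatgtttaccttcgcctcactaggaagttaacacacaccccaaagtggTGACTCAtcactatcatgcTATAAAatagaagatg
Timp1: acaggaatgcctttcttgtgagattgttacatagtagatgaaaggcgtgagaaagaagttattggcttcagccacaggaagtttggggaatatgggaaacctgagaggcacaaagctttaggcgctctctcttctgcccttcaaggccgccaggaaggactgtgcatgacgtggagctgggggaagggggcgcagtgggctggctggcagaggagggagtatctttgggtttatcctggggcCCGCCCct
Timp3: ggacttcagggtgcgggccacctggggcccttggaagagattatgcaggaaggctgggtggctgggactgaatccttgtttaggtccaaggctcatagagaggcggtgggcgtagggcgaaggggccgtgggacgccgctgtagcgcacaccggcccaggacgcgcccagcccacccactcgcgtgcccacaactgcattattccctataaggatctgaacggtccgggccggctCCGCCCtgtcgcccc

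AP-1 letters stood in 6.75% of 32851 promoters, and Mmp13 was the 1 of 7 members with them, as TGACTCA at positions -35 to -29 from the start. The TATA box, in 12.4% of promoters, was again found in Mmp13 alone of the 7, at -16 to -11, and in 7 of 15 other MMP genes with a window. A GC box, in 32.7% of promoters, stood in 5 members, Mmp14, Mmp15, Timp1, Timp2 and Timp3, and in Timp1 and Timp3 it was read on the other strand, as CCGCCC at -8 to -3 and at -15 to -10. Of the same 15 other MMP genes 7 held AP-1 letters (Mmp1a, Mmp1b, Mmp3, Mmp7, Mmp10, Mmp12 and Mmp20). Timp4 held none of the 3 motifs. A match is a description of letters, and whether any factor bound there was not measured.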

How the data were processed

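Liver RNA of 32 samples was measured on 1-colour arrays of 62976 spots. Per the file headers, the deposited intensity values were background-subtracted and detrended within each array by the scanner software, and per the labels the authors used limma. The authors also deposited normalized log2 values, whose medians (6.54 before and 6.88 after PH) and 75th percentiles (8.58 and 9.19) differ between the times, so they were used within a time only. Their scale is log2, and the centring is not stated. Each of the 32 columns correlated best with its own array.

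Here, each log2 processed signal was taken relative to its array's 75th percentile over 59305 non-control spots. Spots with outlier flags were dropped, which removed 426 of 55681 probes, and 27656 probes were named through a RefSeq accession, the rest by the files. Of all probes, 28932 were kept as well above background on all 4 arrays of a group, and each of 21071 genes was read from the brightest of its kept probes. All 8 groups entered 1 fit in limma 3.58.1 (R 4.3.3), with Benjamini-Hochberg adjustment over all tested genes, a threshold of 0.05, 12 comparisons between groups and 2 interactions. The steps were tested on simulated data. The members and lists were chosen with earlier results of these data known. Of each list, at most the 4 largest changes past the threshold and the brightest gene were named, a few examples being given per list, and for each member the 3 most and the 1 least correlated genes.

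Alternatives were normexp (offset 50) with quantile normalization, median centring, the mean over the probes of a gene, no filter on dim signals, the authors' values, only the arrays compared, the replicate number as a block and each array left out. Leaving out 3 arrays after PH was added after seeing the data. Protein, qPCR and histology data of the study were not analysed.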

Additional observations from a re-analysis of the deposited data

Results flagged for a closer look

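In 4 of 80 sets of 4 arrays (10 members in 8 groups), 1 array lay far from the other 3, by Dixon's ratio of gap to range. Chance alone gives about 5% of sets. Mmp2 was high on M+Fc replicate 1 before PH, at -1.59, with the next value at -2.74. Timp2 was low on C replicate 3 after PH, at 2.38, with the next at 3.38, and high on C+Fc replicate 1 after PH, at 3.75, with the next at 2.46. The dim Timp4 signal was low on M+Fc replicate 4 after PH, at -6.48, with the next at -4.41, in a group where 0 arrays were well above background.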

How the results depend on the processing

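Groups of 4 arrays show only large changes, and most members were read from 1 probe. Bulk RNA gives neither the cell of origin nor the amount or activity of a protease. Slide and group cannot be told apart in comparisons of 2 groups outside the 3 on 1 slide, while offsets of whole slides drop out of the interactions, and mice that died after PH are absent. The paper reports a lower survival after PH in MCD than in M+Fc mice, so that the groups after PH were not selected alike. Which samples before and after PH came from 1 mouse is not given.

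The 14 comparisons gave 112 limma results for the 8 tested members, of which 10 passed the threshold. In 4440 alternative values of them, 0 turned the direction of a change past the threshold, 76 lost a pass (55 of these with 1 array left out) and 44 gained one (15 with 1 array left out). The authors' values were not fitted across time.

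Counts of all genes that moved by over 1.5 times are given with M+Fc and C+Fc for the treated groups. With normexp and quantile normalization they were 1445 (M+Fc against C+Fc before PH), 2462 (C+Fc against C before), 2624 (M+Fc against MCD before), 132 (C+Fc against C after), 1264 (time in MCD), 1296 (time in C+Fc), 623 (time in M+Fc), 531 (diet by drug) and 6 (diet by time). The authors' values gave 1308, 2216 and 2365 for the same 3 comparisons before PH, 1786 (M+Fc against C+Fc after PH), 69 (C+Fc against C after), 855 (M+Fc against MCD after) and 668 (diet by drug). Median centring gave 1039 (C+Fc against C before), 2563 (diet by drug) and 12 (diet by time). No filter gave 6761 (M+Fc against MCD before), 211 (C+Fc against C after), 769 (M+Fc against MCD after), 707 (time in C+Fc), 926 (time in M+Fc) and 7 (diet by time). Only the arrays compared gave 1370 (M+Fc against C+Fc before), 48 (C+Fc against C before), 1611 (MCD against C after), 88 (C+Fc against C after), 830 (M+Fc against MCD after), 1163 (time in C), 53 (time in C+Fc), 98 (time in M+Fc) and 4 (diet by time). Without the 3 arrays that stood apart there were 179 (C+Fc against C after), 1701 (time in C) and 82 (diet by time).

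Counts of members moved as well, and those that include Mmp13 rest partly on signals not well above background. In MCD against C mice before PH there was 1 with normexp. In M+Fc against MCD mice before PH there were 2 with normexp, median centring, no filter, only the arrays compared or the 3 arrays left out, 3 in the authors' values and 1 with the replicate number as a block. After PH there were 2 in MCD against C and 2 in M+Fc against MCD mice with the 3 arrays left out, 1 in M+Fc against C+Fc mice with normexp, and 0 in M+Fc against MCD mice with median centring, the authors' values, no filter or only the arrays compared. Over time there was 1 in C mice with normexp, no filter or the mean over probes and 0 with only the arrays compared, 1 in MCD mice with normexp or median centring and 4 with only the arrays compared, 0 in C+Fc mice with normexp, median centring or only the arrays compared, and 1 in M+Fc mice with the 3 arrays left out. The interaction of diet and drug had 1 in the authors' values, with only the arrays compared and with the 3 arrays left out.

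With each array left out in turn, the counts of all genes ran from 198 to 561 (C+Fc against C before PH), 546 to 1861 (M+Fc against MCD before), 1659 to 3003 (MCD against C after), 182 to 501 (C+Fc against C after), 691 to 1596 (M+Fc against MCD after), 1527 to 3048 (time in C), 19 to 290 (time in C+Fc), 161 to 598 (time in M+Fc), 647 to 1646 (diet by drug) and 5 to 41 (diet by time). Members ran from 1 to 4 in MCD against C mice before PH, 0 to 2 in M+Fc against MCD mice before PH, 0 to 1 in the comparisons after PH, except 0 throughout in C+Fc against C mice, and over time in M+Fc mice, 1 to 3 over time in C, 0 to 2 in MCD and 0 to 2 in C+Fc mice.

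Median centring shifted the median of all genes by 0.37 in MCD against C, -0.26 in M+Fc against C+Fc, 0.30 in C+Fc against C and -0.32 in M+Fc against MCD mice before PH, by 0.12 in MCD against C and -0.13 in M+Fc against MCD mice after PH, by 0.16 over time in C and -0.11 in C+Fc mice, and by -0.62 and 0.21 in the interactions. The share of passing genes that were higher went from 41.4% to 76.9%, 51.6% to 24.5%, 46.4% to 89.8% and 61.4% to 16.3% in the comparisons before PH in that order, from 49.8% to 61.9%, 55.1% to 67.0% (C+Fc against C) and 57.1% to 41.0% after PH, from 43.6% to 64.3% (C), 65.8% to 51.6% (MCD), 57.4% to 36.8% (C+Fc) and 47.9% to 65.4% (M+Fc) over time, and from 58.3% to 5.8% and 50% to 83.3% in the interactions. Normexp gave 29.4% over time in C+Fc mice and 47.3% for diet by drug, with a shift of -0.12, and 83.3% for diet by time. The authors' values gave 44.7% (M+Fc against MCD before), 42.9% (after PH) and 37.3% (diet by drug). No call past the threshold among the members changed sign under any scaling.

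Replicate numbers carried no pairing, as residuals of arrays with the same number correlated at a mean of 0.0173 (112 pairs) and of others at -0.0053 (336 pairs). With the number as a block, Timp1 in M+Fc against MCD mice before PH had an adjusted p of 0.0388, and 0 other member counts changed.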
